A study of Mus musculus with 6 samples.

Results

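Signals of 10 genes of the NF-kB system were examined in lung endothelial cells (ECs) from mice with breast cancer metastases in which macrophages had been targeted with clodronate or not. The genes were Rel, Rela, Relb and Nfkb2, which encode subunits of NF-kB, the IkB family genes Nfkbia, Nfkbie and Bcl3, and the signalling regulators Tnfaip3, Birc3 and Traf1. The genes were chosen with earlier results of these data known. For these genes, every probe set that the platform annotation assigned to one symbol alone was taken, without use of any measured value. This gave 19 of the 45037 probe sets tested and 10 of the 18193 genes they represent. Nfkbia had 5 such probe sets, Nfkb2, Nfkbie, Tnfaip3, Birc3 and Traf1 had 2 each, and 4 genes had 1.

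All animals were NSG mice aged 6 to 8 weeks, a strain that lacks T, B and natural killer cells, and all had received MDA-LM2 cells, a lung-metastatic derivative of the human breast cancer line MDA-MB-231, through the tail vein. On days 14, 16 and 18 after cancer cell injection, 1 group was given clodronate-loaded liposomes, which kill the phagocytes that take them up, and the other was given PBS-loaded liposomes, so that both groups carried metastases and liposomes. The study reported less lung colonization by these cells after clodronate-liposomes, and the sample labels give no metastatic load. The part of metastatic load in the results below was not tested. Lungs were taken on day 20, and ECs were sorted as CD31+ cells that lacked CD45, CD11b, EpCAM, CD140a, CD140b and the GFP of the cancer cells. Each group had 3 samples with 1 Affymetrix mouse whole-genome array each. The labels call them biological replicates and do not say how many mice each holds, and no group without liposomes or without metastases was part of the comparison.

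NF-kB is a family of dimeric transcription factors that rest in the cytoplasm bound to IkB proteins. Signals from TNF, IL-1 and Toll-like receptors activate the IKK kinase complex, which marks IkB proteins for degradation and lets the dimers reach the nucleus. In endothelium this pathway drives the genes of adhesion molecules and chemokines that recruit leukocytes, and it also induces several of its own inhibitors, among them Nfkbia and Tnfaip3, which end the response. Another branch, through the kinase NIK, processes the Nfkb2 product p100 to p52, which pairs with RelB.

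NF-kB can induce genes through kappaB sites near the start of transcription. The promoters of the 10 genes were therefore read from the RefSeq promoter table (assembly GRCm38.p6). It covered 9 of them with 12 start sites, each from 250 bases before to 50 bases after the start. Sites outside these stretches were not searched, so a gene without a match here may have sites elsewhere. Relb was not matched. Windows of 150 bases, from 138 bases before the start to base 12 of the transcript, are shown for the 3 IkB family genes, 2 of which (Bcl3 and Nfkbie) had the most negative differences of the 10 genes by their brightest probe sets, and 1 of which (Nfkbia) had a difference close to 0. They are written 5′ to 3′ on the strand of the gene, with capitals for the match to the kappaB consensus.
Bcl3 (chr7:19822744-19822893, minus strand): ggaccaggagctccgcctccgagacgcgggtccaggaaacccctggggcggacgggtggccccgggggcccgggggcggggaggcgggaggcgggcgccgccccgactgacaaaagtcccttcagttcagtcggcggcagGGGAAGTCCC
Nfkbie (chr17:45555562-45555711, plus strand): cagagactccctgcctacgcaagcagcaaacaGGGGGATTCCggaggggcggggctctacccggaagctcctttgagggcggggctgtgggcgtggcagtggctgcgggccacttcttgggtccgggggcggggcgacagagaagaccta
Nfkbia (chr12:55492636-55492785, minus strand): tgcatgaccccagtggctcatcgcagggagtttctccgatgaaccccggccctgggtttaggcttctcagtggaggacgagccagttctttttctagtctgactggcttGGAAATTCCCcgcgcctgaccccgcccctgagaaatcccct

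The capitals lie at bases 3 to 12 of the transcript in Bcl3, at -106 to -97 in Nfkbie and at -29 to -20 in Nfkbia, counted with the first transcribed base as 1 and the base before it as -1. In Bcl3 and Nfkbia the match reads on the opposite strand, in Nfkbie on the strand shown. The search used both strands and 2 motifs, the degenerate kappaB consensus of 10 bases and the wider form GGGNNNNNCC, which every consensus match also fulfils. The consensus was found in 6 of the 9 genes (Bcl3, Nfkb2, Nfkbia, Nfkbie, Rel and Tnfaip3), against 5.14% of the 27018 genes in the table and 4.51% of its 32841 promoters. For the 3 genes without a window above, the matched bases are given alone: Rel held GGGAAATCCC at -92 to -83, Tnfaip3 held GGGACACCCC at -125 to -116 and GGAAATCCCC at -12 to -3, and Nfkb2 held GGGAATTCCC at -39 to -30 and GGGGCTTTCC at -11 to -2 of the first start site listed, with overlapping matches given once. The wider form was found in 8 of the 9 genes, against 53.5% of all genes and 50.8% of all promoters. A match describes the letters of these windows and not a bound site.

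The comparison of both liposome groups asked which of the 10 genes had another signal in ECs after clodronate. None of them passed the threshold of an adjusted p of 0.05 over all probe sets in either direction (limma, a linear model with moderated variances, on log2 signals). Of all probe sets 0.306% passed it (138 of 45037, 107 of them lower and 31 higher after clodronate), and at the level of genes, each taken by its brightest probe set, 0.346% passed lower and 0.0879% higher. At an unadjusted p under 0.05, 4 of the 19 probe sets were lower after clodronate and 0 were higher, where the shares over all probe sets were 5.27% lower and 5.53% higher. The 4 belonged to Bcl3, Nfkbie (both probe sets) and Tnfaip3. In 5 probe sets all 3 clodronate-liposome arrays lay below all 3 PBS-liposome arrays, and in 2 they lay above, where 8.04% and 7.97% of all probe sets did so. Probe sets of 1 gene measure the same transcripts and are not independent.

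Taken by its brightest probe set, 9 genes had a negative and 1, Rela, a positive difference. The values of Rela (0.01) and Nfkbia (-0.01) were too close to 0 for a sign, since both turned when single arrays were left out and Nfkbia was also positive (0.087) with its most variable probe set or the mean of its probe sets. The median of the 10 differences was -0.11 on the log2 scale, next to -0.0031 over all 18193 genes, and it was -0.17 without clodronate-liposome replicate 3. Most of the 10 were small differences inside their error, and Bcl3 stood apart from the rest with -1.06.

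**Figure D1:**
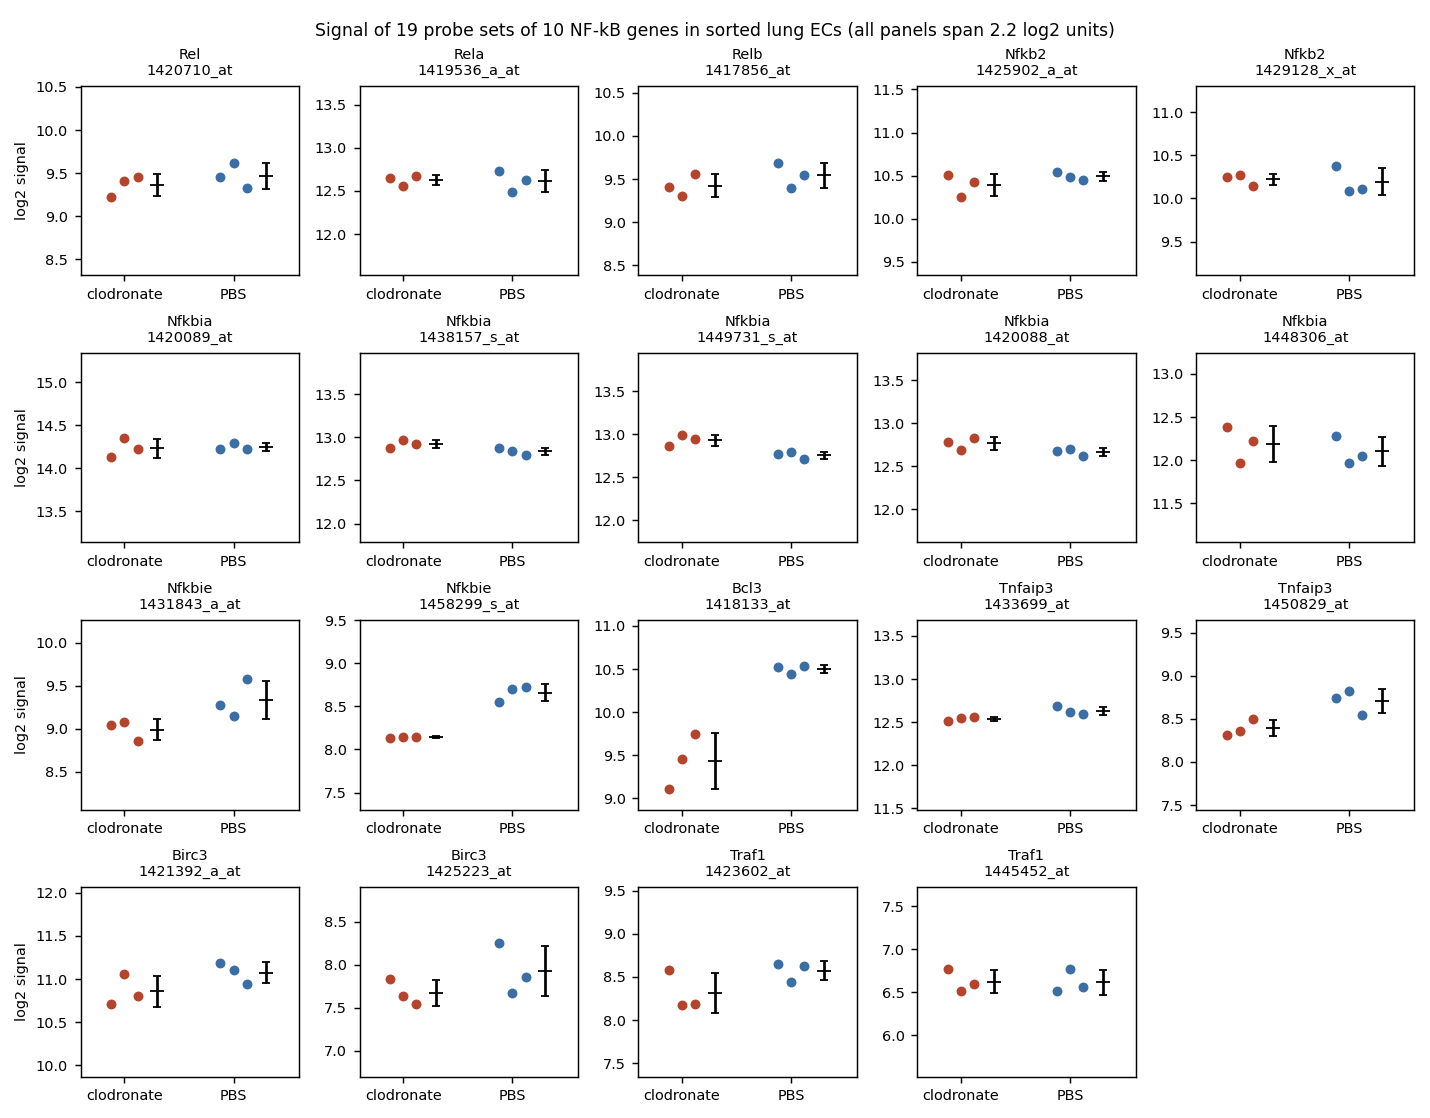
Log2 signal of the 19 probe sets, 1 panel each, with the 3 clodronate-liposome arrays (red) left of the 3 PBS-liposome arrays (blue) and the mean ± SD of each group in black; every panel spans the same number of log2 units. The groups are furthest apart in Bcl3, with 9.10 to 9.75 after clodronate and 10.45 to 10.53 after PBS, and in the second Nfkbie probe set, while Rel, Rela, Relb and Nfkb2 overlap.

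The 95% confidence intervals of all 4 subunit genes included 0. Rela encodes p65, the main activating subunit of the canonical pathway, and had log2 signals of 12.65, 12.56 and 12.67 after clodronate and 12.74, 12.49 and 12.63 after PBS. The clodronate values lay within the range of the PBS values, and the difference was 0.01 (SE 0.10, 95% confidence interval -0.23 to 0.25, adjusted p = 0.989). The interval allows a signal up to 1.17-fold lower or 1.19-fold higher after clodronate.

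Rel, which encodes c-Rel, had 9.22, 9.41 and 9.46 after clodronate and 9.45, 9.62 and 9.33 after PBS. The groups overlapped and differed by -0.11 (-0.37 to 0.16, adjusted p = 0.826). Relb, the partner of p52 in the branch through NIK, had 9.40, 9.31 and 9.56 after clodronate and 9.69, 9.40 and 9.54 after PBS, again with overlap, and differed by -0.12 (-0.39 to 0.15, adjusted p = 0.800). For both genes the interval reaches to a signal about 1.3-fold lower (1.30-fold for Rel and 1.31-fold for Relb), and smaller changes could not be told from none with 3 arrays a group. With 1 array left out, the difference ran between -0.17 and -0.03 for Rel and between -0.19 and -0.05 for Relb.

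Nfkb2, the gene of p100 and p52, was read by 2 probe sets that differed in sign and overlapped in both cases. The brighter one had 10.51, 10.25 and 10.42 after clodronate and 10.55, 10.48 and 10.45 after PBS (difference -0.10, interval -0.34 to 0.14, adjusted p = 0.815). The other, whose suffix marks possible cross-hybridization, had 10.25, 10.27 and 10.15 after clodronate and 10.37, 10.09 and 10.11 after PBS (difference 0.03, interval -0.23 to 0.29, adjusted p = 0.958). With 1 array left out, these differences ran between -0.15 and -0.03 and between -0.02 and 0.12.

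The most negative differences among the 10 genes were found in the IkB family, and so was the largest set of probe sets with positive ones. Nfkbia encodes IkBα, the rapidly resynthesized inhibitor of p65 dimers and the classical feedback gene of the pathway. Its brightest probe set had 14.13, 14.35 and 14.22 after clodronate and 14.22, 14.30 and 14.22 after PBS, a difference of -0.01 (-0.24 to 0.22, adjusted p = 0.984). This probe set lay at the top of the signal range, with 99.99% of probe sets dimmer, and 3 of its 6 values were identical.

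The other 4 Nfkbia probe sets were dimmer, and all had positive differences. The largest was 0.17 (-0.04 to 0.39, adjusted p = 0.560), with 12.86, 12.99 and 12.94 after clodronate and 12.77, 12.79 and 12.71 after PBS, and here the clodronate arrays lay above the PBS arrays by a gap of 0.073. In a further probe set (12.88, 12.96 and 12.93 after clodronate, 12.87, 12.84 and 12.80 after PBS, difference 0.09, adjusted p = 0.809) the groups were also apart, by 0.0062 only. The last 2 overlapped, with differences of 0.10 (-0.11 to 0.31, adjusted p = 0.779) and 0.09 (-0.24 to 0.41, adjusted p = 0.887). None of the 5 passed the test, and the widest upper limit among them was 0.41.

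Nfkbie encodes IkBε, an inhibitor of p65 and c-Rel dimers that is itself induced by NF-kB and acts later than IkBα. Both of its probe sets were lower in all 3 clodronate-liposome arrays. The brighter one had 9.04, 9.08 and 8.85 after clodronate and 9.27, 9.15 and 9.58 after PBS, which left a gap of 0.069 between the groups and a difference of -0.34 (SE 0.14, -0.65 to -0.03, adjusted p = 0.411). Without PBS-liposome replicate 3 this difference was -0.22 (adjusted p = 0.668). The dimmer one, whose suffix marks probes that can match other sequences, had 8.13, 8.15 and 8.15 after clodronate and 8.55, 8.70 and 8.73 after PBS. Its clodronate arrays were nearly identical (SD 0.0098, n = 3, against 0.094 in the PBS arrays, n = 3), the gap was 0.40, and the difference of -0.52 (SE 0.094, -0.73 to -0.30) was a 1.43-fold lower signal with an adjusted p of 0.0888. It passed the threshold, with an adjusted p of 0.0495, only where dim probe sets were left out before the adjustment.

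Bcl3 encodes an atypical IkB protein of the nucleus that binds p50 and p52 dimers and can activate or repress their targets. It had 9.10, 9.46 and 9.75 in the clodronate-liposome arrays and 10.53, 10.45 and 10.53 in the PBS-liposome arrays. All 3 clodronate values lay below the PBS values with a gap of 0.70, and they were spread far more (9.44 ± 0.32, against 10.50 ± 0.047, SD, n = 3 each). The difference was -1.06 (SE 0.16, -1.43 to -0.70), a 2.09-fold lower signal, and the interval reaches to a 2.70-fold lower one. With an adjusted p of 0.0513 it missed the threshold in the test over all probe sets, and it passed with dim probe sets left out (0.0294) and with a trended, robust variance (0.0247). The other settings with more than 1 array in each group gave adjusted p between 0.0513 and 0.223 with differences of -1.22 to -0.90. These include the 6 that left out 1 array. The arrays also differed in their controls. Probe sets for 18S ribosomal RNA had mean signals of 13.01, 12.33 and 13.00 after clodronate and 12.63, 12.39 and 12.56 after PBS, so that clodronate-liposome replicates 1 and 3 lay above every PBS array. The hybridization controls, which are spiked in before hybridization, had mean signals of 11.91, 12.20 and 11.94 after clodronate and 12.11, 12.24 and 12.12 after PBS, and with them as a covariate Bcl3 differed by -1.04 (adjusted p = 0.223). With replicate 2 as the only clodronate-liposome array, the difference was also -1.04. This array lay within the range of the PBS arrays in the hybridization controls. In 18S ribosomal RNA it lay below all of them (12.33, against 12.39 to 12.63). In that setting the spread comes from the 3 PBS arrays alone, and the single array is assumed to vary like them. The part of the controls in the result was not tested further.

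**Figure D2:**
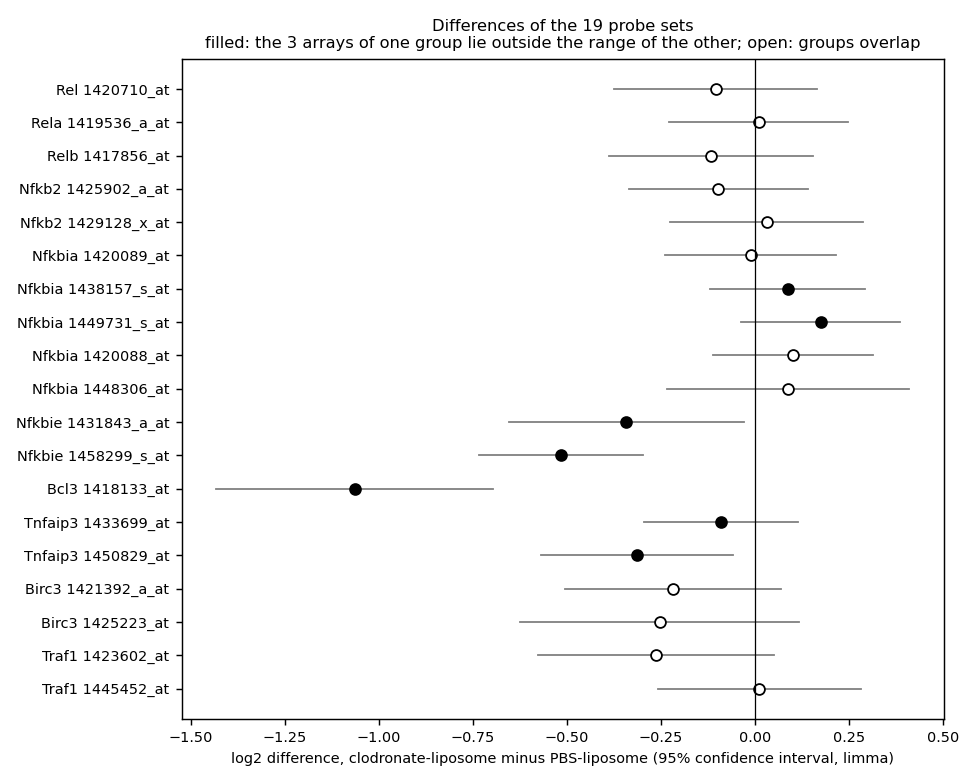
Log2 difference (clodronate-liposome minus PBS-liposome) of the 19 probe sets with 95% confidence intervals from limma, where filled points mark probe sets whose groups do not overlap. The intervals of Bcl3, both Nfkbie probe sets and the dimmer Tnfaip3 probe set stay below 0, and those of the other 15 include 0.

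The 3 signalling regulators had negative differences in 5 of 6 probe sets, none past the threshold. Tnfaip3 encodes A20, a ubiquitin-editing enzyme that shuts down signalling from TNF and Toll-like receptors. In its bright probe set the 6 arrays were close together, with 12.51, 12.55 and 12.56 after clodronate and 12.69, 12.61 and 12.59 after PBS. The groups did not overlap, but the gap was 0.037 and the difference -0.09 (-0.30 to 0.11, adjusted p = 0.794). The dimmer probe set had 8.32, 8.36 and 8.50 after clodronate and 8.74, 8.82 and 8.55 after PBS, again without overlap, and a difference of -0.31 (SE 0.11, -0.57 to -0.06, adjusted p = 0.346).

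Birc3 encodes cIAP2, a ubiquitin ligase of TNF receptor complexes and a known NF-kB target. Its brighter probe set had 10.71, 11.06 and 10.80 after clodronate and 11.19, 11.10 and 10.94 after PBS, with a difference of -0.22 (-0.51 to 0.07, adjusted p = 0.601) that was -0.14 without clodronate-liposome replicate 1. Clodronate-liposome replicate 2 lay among the PBS arrays here, the other 2 below them. The dimmer probe set, which lay under the median signal of all probe sets, had 7.84, 7.64 and 7.54 after clodronate and 8.25, 7.68 and 7.85 after PBS and differed by -0.25 (-0.62 to 0.12, adjusted p = 0.645), and by -0.092 without PBS-liposome replicate 1.

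Traf1 encodes an adaptor of TNF receptor family members and is induced by NF-kB. Its brighter probe set had 8.58, 8.17 and 8.18 after clodronate and 8.65, 8.45 and 8.62 after PBS. In this gene clodronate-liposome replicate 1 was the one among the PBS values, and the difference was -0.26 (-0.58 to 0.05, adjusted p = 0.550), or -0.40 without that array. The second probe set was dim (6.51 to 6.77 in both groups, lower than the median of all probe sets) and differed by 0.01 (-0.26 to 0.28, adjusted p = 0.989).

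The arrays did not share the pattern evenly. Over the brightest probe sets of the 10 genes, clodronate-liposome replicate 1 was the lowest of the 6 arrays in 5 genes, replicate 2 in 3 and replicate 3 in 1, and PBS-liposome replicate 2 was lowest in Rela. PBS-liposome replicate 1 was the highest array in 6 genes, replicate 3 in 2 and replicate 2 in 1, and clodronate-liposome replicate 2 was highest in Nfkbia. Expressed as the mean deviation of the 10 genes from their 6-array mean, the clodronate arrays were at -0.15, -0.11 and -0.08 and the PBS arrays at 0.16, 0.07 and 0.11. These means are widened by Bcl3. The median deviations over the 10 genes were -0.094, -0.073 and -0.025 after clodronate and 0.114, 0.035 and 0.0067 after PBS. The widest deviations among the 10 genes were those of Bcl3, with -0.87, -0.51 and -0.22 after clodronate and 0.56, 0.48 and 0.56 after PBS.

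**Figure D3:**
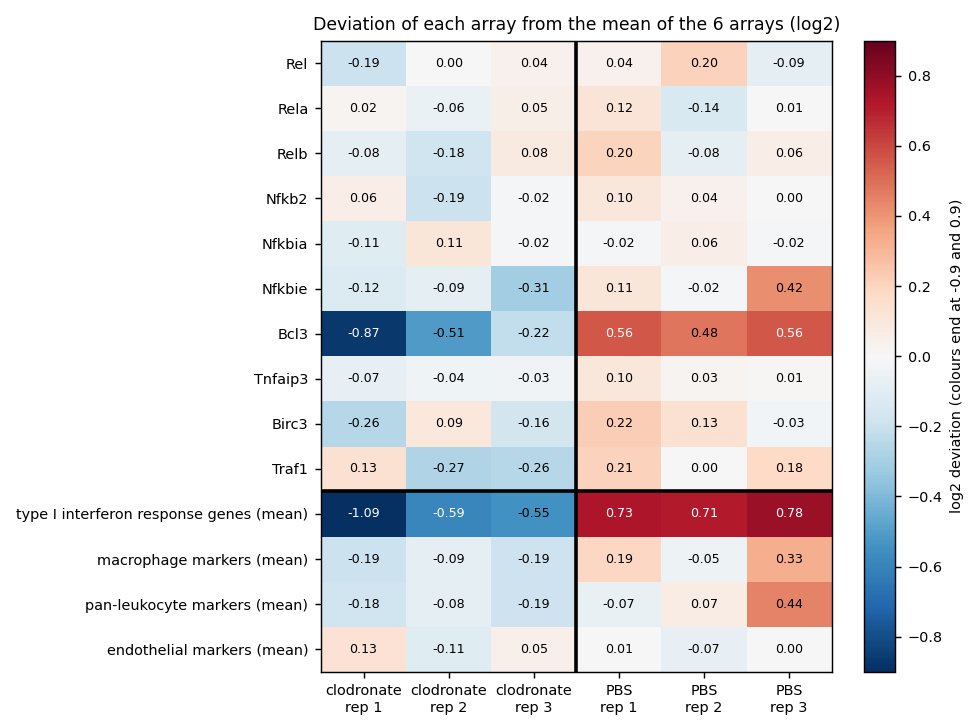
Deviation of each array from the mean of the 6 arrays (log2) for the brightest probe set of each gene and for the mean of 4 gene lists, with the clodronate-liposome arrays left of the vertical line. The values of Bcl3 run between -0.87 and -0.22 after clodronate and between 0.48 and 0.56 after PBS, and those of the other 9 genes, of which Nfkbie and Tnfaip3 are also split without overlap, stay within 0.42 of 0.

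As a description of which genes followed the array pattern of Bcl3, Pearson's r was taken over the 6 arrays against every other gene. The 5 highest were Dcun1d3 (r = 0.998), Oas1a (0.997), Nod1 (0.996), Oasl2 (0.996) and Trafd1 (0.995), with differences of -0.58, -1.24, -0.36, -1.42 and -0.53. Oas1a and Oasl2 belong to the interferon-induced 2′-5′ oligoadenylate synthetase family, Nod1 is an intracellular receptor for bacterial peptidoglycan that feeds into NF-kB, and Trafd1 is an interferon-inducible regulator of Toll-like receptor signalling. Of the 5, Oasl2 passed the threshold (adjusted p = 0.0312), and Oas1a had 9.41, 9.95 and 10.22 after clodronate and 11.07, 11.06 and 11.18 after PBS. These r values describe 6 arrays that fall into 2 groups, so that genes with a group difference share them in part. A list of type I interferon response genes, chosen with earlier results of these data known, had the same direction in all 17 measured members. Past the threshold were 14 of 17 (all lower, next to 0.346% of all genes). The median difference was -1.55. Mean deviations were -1.09, -0.59 and -0.55 after clodronate and 0.73, 0.71 and 0.78 after PBS. The count past the threshold was 11, 7 and 6 without clodronate-liposome replicates 1, 2 and 3, 4, 2 and 4 without PBS-liposome replicates 1, 2 and 3, 0 with the replicate number as a block and 0 with the hybridization controls added to the model.

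The sort selected against leukocytes, epithelial cells, fibroblasts and mural cells. The 12 endothelial markers had a median difference of 0.06 with 0 past the threshold and 0 at an unadjusted p under 0.05, among them Pecam1 (0.07) and Cdh5 (0.09). Of 15 macrophage markers, 14 had negative differences with a median of -0.19, 0 past the threshold and 6 at an unadjusted p under 0.05, and of 10 pan-leukocyte markers all 10 did, with a median of -0.25, 0 past the threshold and 4 at an unadjusted p under 0.05. At that level 5.49% of all genes were lower and 4.54% higher. The NADPH oxidase gene Cybb had the largest difference of the macrophage list, with 7.31, 7.78 and 7.87 after clodronate and 8.43, 8.69 and 9.01 after PBS (-1.06, adjusted p = 0.0871). Fcer1g (-0.69), Csf1r (-0.65, other probe sets at -1.24 and -0.17), Lgmn (-0.52) and Fcgr3 (-0.34) were also lower in all 3 clodronate arrays, with adjusted p between 0.101 and 0.252, and Adgre1 (-0.17), Itgam (-0.08) and Cd68 (-0.08) differed less. In the pan-leukocyte list Itgb2 (-0.61), Ptprc (-0.58), Cd48 (-0.46), Coro1a (-0.41) and Cd52 (-0.12) were lower in all 3 clodronate arrays, with adjusted p between 0.207 and 0.721. Of 9 fibroblast and mural markers, 7 had negative differences (median -0.20), with 0 past the threshold and 1 at an unadjusted p under 0.05, Pdgfrb (-0.27, adjusted p = 0.369), while Dcn differed by -0.52 and Rgs5 by 0.45. The medians of the neutrophil, lymphocyte and epithelial lists were 0.02, -0.0063 and 0.06, with 0 past the threshold in each. In these lists 1 gene, Cd8a (0.23), had an unadjusted p under 0.05. This Cd8a probe set lay under the median signal of all probe sets, and the gene's others differed by -0.07, -0.11, 0.04 and -0.11. In bulk RNA, fewer cells of a type and less RNA per cell cannot be told apart.

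Leukocytes also express Bcl3, Nfkbie, Tnfaip3 and Traf1, so the markers are given by array. The mean deviation of the macrophage markers was -0.19, -0.09 and -0.19 after clodronate and 0.19, -0.05 and 0.33 after PBS. That of the pan-leukocyte markers was -0.18, -0.08 and -0.19 after clodronate and -0.07, 0.07 and 0.44 after PBS. For the fibroblast and mural markers it was 0.04, -0.21 and -0.02 after clodronate and -0.08, 0.10 and 0.18 after PBS. PBS-liposome replicate 3 thus had the highest marker signals in these 3 lists. It was the highest of the 6 arrays in Bcl3 (10.53, next to 10.53 in PBS-liposome replicate 1) and in both Nfkbie probe sets, and the lowest of the PBS arrays in the brightest probe sets of Rel, Nfkb2, Tnfaip3 and Birc3. The part of the markers of any of these cell types in the differences was not tested.

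The rest of the pathway was covered by 6 lists with 96 genes, of which 88 were measured. These lists too were chosen with earlier results of these data known, so their counts beside all genes are a description only. Myd88, Il1b and Selp passed the threshold, all lower after clodronate, which is 3 of 88 next to 0.346% of all genes, and 0 of 88 passed higher, next to 0.0879%. Of the 88, 57 had negative and 31 positive differences (median -0.09), and at an unadjusted p under 0.05 17 were lower and 3 higher, next to 5.49% and 4.54% of all genes.

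Myd88, the adaptor of Toll-like and IL-1 receptors, had 10.62, 10.55 and 10.60 after clodronate and 11.29, 11.20 and 11.28 after PBS, and fell by 0.67 on the log2 scale (SE 0.089, adjusted p = 0.0343). Il1b, the gene of the ligand IL-1β, had 8.61, 8.54 and 8.76 after clodronate and 9.31, 9.29 and 9.27 after PBS. It fell by 0.66 (SE 0.097, adjusted p = 0.0499). The study also reported Il1b expression in cultured macrophages, and the part of leukocyte RNA in this difference was not tested. Selp, which encodes P-selectin, had 10.60, 11.04 and 10.48 after clodronate and 11.73, 11.75 and 11.74 after PBS (difference -1.03, adjusted p = 0.0428), and its other 2 probe sets passed as well. In all 3 genes every clodronate array lay below every PBS array. With 1 array left out the differences stayed between -0.69 and -0.65 for Myd88, between -0.72 and -0.61 for Il1b and between -1.20 and -0.92 for Selp, but the adjusted p no longer passed, except for Selp without clodronate-liposome replicate 2 (0.0289).

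Among the other subunit and IkB family genes, 0 of 4 measured passed the threshold, and their median of -0.09 was 0.06 with dim probe sets left out and -0.02 without PBS-liposome replicate 1. Nfkbid, the gene of IkBNS, a nuclear relative of Bcl3, had 7.69, 8.01 and 8.01 after clodronate and 8.35, 8.14 and 8.29 after PBS, without overlap (difference -0.36, adjusted p = 0.326). Its signal lay under the median of all probe sets. Nfkbiz, the gene of the nuclear protein IkBζ, differed by -0.25 in its brightest probe set with overlap (adjusted p = 0.588), and its other 2 probe sets had -0.76 (adjusted p = 0.114) and -0.42. Nfkbib, the gene of IkBβ, differed by 0.06 (adjusted p = 0.935) and Nkrf, an NF-kB repressing factor, by 0.23 (adjusted p = 0.560). The list thus held differences of both signs.

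Of 10 measured genes of the IKK complex and upstream kinases, 8 had negative differences and 0 passed. The median was -0.13, or -0.05 with dim probe sets left out and -0.08 without clodronate-liposome replicate 1. Map3k8, which encodes the kinase TPL2, had 11.86, 12.40 and 12.21 after clodronate and 12.87, 12.82 and 12.59 after PBS (difference -0.60, adjusted p = 0.196). Map3k14, the gene of NIK, differed by -0.45 (adjusted p = 0.150) in 1 probe set and by -0.03 in the other. Tab3 (-0.26), Ikbke (-0.21, under the median signal) and Map3k7 (-0.20, with other probe sets of both signs) had adjusted p between 0.537 and 0.582. Of 22 measured adaptors and ubiquitin enzymes, 1 (Myd88) passed lower and 0 higher (median -0.12, or -0.04 without clodronate-liposome replicate 2). Rnf31, a subunit of the linear ubiquitin ligase complex, differed by -0.54 (adjusted p = 0.249), and Tnip1, a partner of A20, by -0.34 (adjusted p = 0.294), both without overlap. Tnip2 differed by -0.19 and Rnf11 by 0.19, each without overlap and with adjusted p of 0.549 and 0.528.

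All 9 measured ligand genes had negative differences (median -0.09, smallest -0.03 in Lta), and Il1b alone passed. With dim probe sets left out the median was -0.21, which is the value of Il1a itself. Tnf was under the median signal of all probe sets, with 7.44, 7.46 and 7.30 after clodronate and 7.51, 7.61 and 7.64 after PBS (difference -0.19, adjusted p = 0.559). Il1a (-0.21), Ltb (-0.15) and Tnfsf14 (-0.09) overlapped between the groups, and Ltb and Tnfsf14 were also under the median signal. Of 9 receptors 0 passed (median -0.22), and they pointed both ways. Tnfrsf1b, the gene of TNF receptor 2, differed by -0.30 (adjusted p = 0.323) with a second probe set at 0.14, Tnfrsf1a by -0.33 (adjusted p = 0.525) and Il1r1 by -0.28 (adjusted p = 0.449). Tnfrsf12a, the receptor of TWEAK, differed by -0.41 (adjusted p = 0.450) with overlap, and its other probe set by -0.45 (adjusted p = 0.306) without overlap. Cd40, by contrast, had higher signals in all 3 clodronate arrays (11.83, 11.58 and 11.68, against 11.41, 11.34 and 11.46 after PBS), a difference of 0.29 (adjusted p = 0.355) that its other 2 probe sets shared in sign (0.41 and 0.18).

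The list of 35 measured endothelial NF-kB target genes was split, with 20 negative and 15 positive differences. The median was -0.04, or -0.12 with dim probe sets left out, -0.11 and -0.09 without clodronate-liposome replicate 1 and PBS-liposome replicate 2, and 0.0078 without PBS-liposome replicate 1. Selp passed lower and 0 passed higher, and at an unadjusted p under 0.05 7 were lower and 2 higher, next to 5.49% and 4.54% of all genes. Tnfrsf9, a costimulatory TNF receptor (4-1BB), had 7.21, 7.46 and 7.42 after clodronate and 7.93, 8.32 and 8.38 after PBS, without overlap (difference -0.85, adjusted p = 0.0751). This probe set lay under the median signal of all probe sets, and the gene's still dimmer ones had -0.13 and -0.10. Among the adhesion molecule genes, Sele, the gene of E-selectin, had 10.50, 11.33 and 10.90 after clodronate and 11.66, 11.52 and 11.41 after PBS (difference -0.62, adjusted p = 0.298), whereas Icam1 differed by -0.04 (-0.33 to 0.25, adjusted p = 0.949) and Vcam1 by 0.25 (-0.07 to 0.56, adjusted p = 0.580). Gch1, the first enzyme of tetrahydrobiopterin synthesis, differed by -0.67 (adjusted p = 0.173) and the immediate early gene Ier2 by -0.51 (adjusted p = 0.220), both lower in all 3 clodronate arrays. Cd83, also under the median signal, differed by 0.38 (adjusted p = 0.265) and was higher in all 3.

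**Figure D4:**
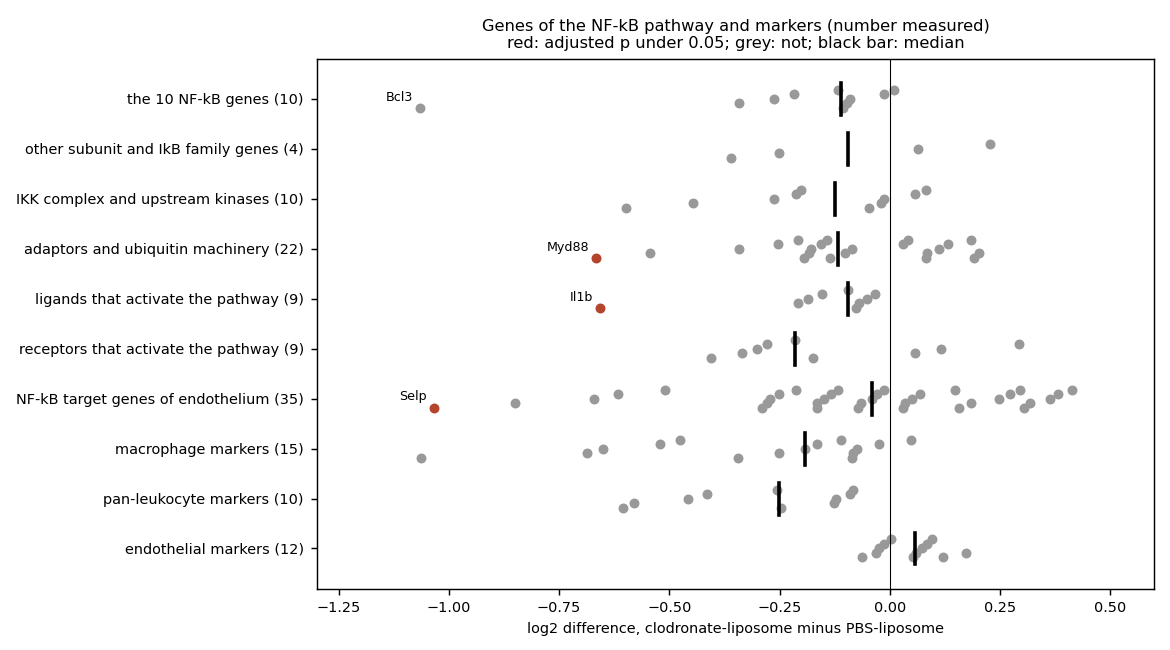
Log2 difference (clodronate-liposome minus PBS-liposome) of every measured gene of the 10 genes, the 6 pathway lists and 3 marker lists, 1 point per gene by its brightest probe set, with the median of each list as a black bar and genes past an adjusted p of 0.05 in red. Myd88, Il1b and Selp are the red points, Bcl3 lies at -1.06 among the 10 genes, and every median but that of the endothelial markers (0.06) lies between -0.25 and -0.04.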

How the data were processed

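RNA of sorted lung ECs (3 clodronate-liposome, 3 PBS-liposome samples) was hybridized to 1-color arrays. The deposited log2 signals had been made by the authors with robust multiarray averaging, which corrects background and equalizes the distributions of the arrays, and were used as deposited. Of 45101 probe sets, 64 manufacturer's controls were set aside and 45037 tested without a filter on signal. The platform annotation gave 34945 of them 1 symbol (18193 genes), and a gene was represented by its brightest such probe set.

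Differences were tested with limma 3.58.1 in R 4.3.3 (two-sided, no covariate), after the study's empirical Bayes comparison, with Benjamini-Hochberg adjustment over the 45037 probe sets and a threshold of 0.05. The steps were tested on simulated data. The 3 arrays per group limit the precision, and p values measure only the spread between these samples.

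The 10 genes and all lists were chosen with earlier results of these data known. Named were all probe sets of the 10 genes, up to 5 genes of each other list (those past the threshold, then by p) plus a fixed set of markers, ligands, receptors and adhesion genes, and the 5 genes most like Bcl3. Marker lists of cell types with little difference are given by counts and medians. Alternatives covered a signal filter (probe sets above the median), 2 further normalizations, a replicate block, a trended robust variance, array weights, the choice of probe set and each array left out. A few genes are not analysed here.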

Additional observations from a re-analysis of the deposited data

How the results depend on the processing

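With a filter on low signal or a trended, robust variance, 1 of the 10 genes passed the threshold (Bcl3, adjusted p = 0.0294 and 0.0247, difference -1.06 in both), against 0 otherwise, and the second Nfkbie probe set also passed with the filter (adjusted p = 0.0495). The median of the 10 genes was -0.19 with the most variable probe set of each gene, -0.16 with clodronate-liposome replicate 2 as the only array of its group, and -0.17 to -0.091 with 1 array left out. Over all probe sets, 138 passed, against 244 with the filter, 248 with the trended, robust variance, 234 with array weights, 0 with the replicate block, 0 with the hybridization controls added as a covariate and 0 where clodronate-liposome replicate 2 stood alone. With 1 array left out 6 to 73 passed (33, 73 and 23 without clodronate-liposome replicates 1, 2 and 3, and 15, 6 and 16 without PBS-liposome replicates 1, 2 and 3). At an unadjusted p under 0.05 there were 4864 probe sets, and there were 5033 with the block, 4710 with the covariate and 3964 with clodronate-liposome replicate 2 alone. The last 2 settings were chosen after seeing the data, and in the last the 3 PBS arrays alone give the spread, so that its lost calls also come from fewer samples.

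Same-numbered arrays deviated together only weakly (r = 0.075, 0.070 and 0.036), although every array correlated best with its own number, so the numbers were not taken to pair the arrays. With the replicate block Bcl3 had an adjusted p of 0.0911. The pathway genes past the threshold numbered 0 with the block, 0 with the covariate and 0 with clodronate-liposome replicate 2 alone, against 3, and 0 to 1 with 1 array left out. Il1b also lost its call with the trended, robust variance (adjusted p = 0.0686).

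Among the probe sets of the 10 genes, signs turned in those with differences near 0, namely Nfkb2 (0.030 with the most variable probe set), the brightest Nfkbia probe set (0.087 with the most variable probe set and with the mean of all, 0.079 with the covariate, 0.10 with clodronate-liposome replicate 2 alone, -0.070 to 0.039 with 1 array left out), Rela (-0.070 with the covariate, -0.056 with clodronate-liposome replicate 2 alone, -0.056 to 0.070 with 1 array left out), the dimmest Nfkbia probe set (-0.10 with the covariate, -0.14 with clodronate-liposome replicate 2 alone, -0.0089 to 0.20 with 1 array left out), the dimmer Traf1 probe set (-0.0019 with array weights, -0.021 with the covariate, -0.10 with clodronate-liposome replicate 2 alone, -0.061 to 0.090 with 1 array left out) and the second Nfkb2 probe set (-0.021 to 0.12 with 1 array left out). Of the list medians, that of the other subunit and IkB family genes turned to 0.064 with the filter, and that of the target genes to 0.0078 without PBS-liposome replicate 1. Median centring and a second quantile normalization changed no call. The causes were not tested.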
